A study of Homo sapiens with 15 samples.

Results

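The replication-dependent histone genes of chromosome 6 form the largest group of histone genes in the human genome, and their promoter contacts in prostate cancer cells treated with androgen are described here. The members were chosen by position and symbol. They are the 50 protein-coding genes whose start lies between 26 and 28 Mb of chromosome 6 (hg19) and whose symbol marks them as a linker histone (H1) or a core histone (H2A, H2B, H3 or H4), out of 20176 coding gene records in the Gencode annotation. They comprise 6 H1, 11 H2A, 12 H2B, 10 H3 and 11 H4 genes. H2BC7, H2BC8 and H4C6 are not in that annotation as lifted to hg19, so they are missing from the members and from these counts. A loop was given to a gene where a 1 kb anchor overlapped the 2.5 kb on either side of its start, which yielded 508 of the 505995 different loops of the series. The rule for genes uses position and symbol, whereas a loop is itself a call that the authors made from contact over all time points of a mark.

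LNCaP, an androgen-responsive prostate cancer cell line, was kept in hormone-depleted, charcoal-stripped serum and then given vehicle (0 m) or 10 nM dihydrotestosterone (DHT), the potent natural androgen, over 4 intervals, the shortest 30 m and the others 4 h, 16 h and 72 h. Chromatin contacts were captured by HiChIP, which ligates DNA ends that lie close together in fixed nuclei and pulls down the fragments carrying a histone mark. The marks were H3K27ac, found at active promoters and enhancers, with 2 labelled replicates per time point, and H3K4me3, found at active promoters, with 1. All groups are the same cell line, so they show 1 cancer cell background only. A loop has a single normalised contact for each mark and time point in the deposited tables, which leaves replicate error unknown and allows no test between time points. Differences between time points therefore cannot be told apart from differences between the libraries behind the values. The values were whole multiples of a constant, the contact of 1 read pair, and the recovered read pairs gave the 95% intervals below, which are exact for the ratio of counts and cover counting error only. The libraries held between 2153262 and 10675614 read pairs in loops, with a median of 1 to 7 per loop, so weak loops were read in sets. Genes used as markers of the line had loops throughout. Those of KLK3, which encodes prostate-specific antigen, summed to an H3K27ac contact of 142.8 at 0 m, 294 at 4 h and 82.4 at 72 h, and KLK2, TMPRSS2, FKBP5 and HOXB13 had 5 to 30 loops each.

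Replication-dependent histone genes supply the protein that packages newly copied DNA, and they are transcribed in S phase. They lack introns, and their mRNAs end in a conserved stem-loop bound by SLBP in place of a poly(A) tail. In the nucleus the clusters gather at the histone locus body, a compartment that holds the activator NPAT and the RNA-processing factors of these genes.

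The sequences of the members show both hallmarks, the transcript end and the promoter. A 16-base stem-loop was searched in the 150 bases after the stop codon of the GRCh37 sequence, and 47 of 50 members held it, all but H3C6, H2BC10 and H4C13. Among 15 replication-dependent histone genes elsewhere in the genome 15 held it, among 11 replication-independent histone genes 1 did (H2AX), and among 19972 other coding genes 3 did (H3-7 and the testis-type H2AC1 and H2BC1). The forms found in most members are printed with the paired stem bases in capitals.
form of 28 members: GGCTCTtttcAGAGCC
form of 8 members, H4C1 first: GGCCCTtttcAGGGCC
form of 7 members, H1-1 first: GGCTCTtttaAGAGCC

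Many H2A and H2B genes lie head to head and share a promoter. In 8 pairs of neighbouring genes the starts were less than 1000 bp apart on opposite strands, from 170 bp for H2AC15 and H2BC15 to 979 bp for H3C7 and H2BC9. The stretches between the starts of 3 pairs, which anchor the strongest long loops or the largest 72 h difference given below, are printed from the plus strand of GRCh37, the H2B gene running to the left and the H2A gene to the right. Capitals mark every match, on either strand, to the octamer ATTTGCAT, the CCAAT box CCAAT, the TATA box TATAA or the H1 box AAACACA. They lie at chr6:26124154-26124373, chr6:27114634-27114885 and chr6:27775707-27775951.
H2BC4 to H2AC6: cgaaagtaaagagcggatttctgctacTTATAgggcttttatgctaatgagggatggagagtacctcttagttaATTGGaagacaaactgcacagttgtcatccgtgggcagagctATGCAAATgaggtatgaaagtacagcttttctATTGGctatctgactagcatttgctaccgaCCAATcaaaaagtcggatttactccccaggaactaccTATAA
H2BC12 to H2AC12: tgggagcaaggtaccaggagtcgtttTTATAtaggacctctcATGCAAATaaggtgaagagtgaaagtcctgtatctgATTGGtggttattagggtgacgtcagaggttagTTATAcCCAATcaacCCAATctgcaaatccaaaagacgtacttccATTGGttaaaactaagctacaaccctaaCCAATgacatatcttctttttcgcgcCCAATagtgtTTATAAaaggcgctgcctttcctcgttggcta
H2BC13 to H2AC13: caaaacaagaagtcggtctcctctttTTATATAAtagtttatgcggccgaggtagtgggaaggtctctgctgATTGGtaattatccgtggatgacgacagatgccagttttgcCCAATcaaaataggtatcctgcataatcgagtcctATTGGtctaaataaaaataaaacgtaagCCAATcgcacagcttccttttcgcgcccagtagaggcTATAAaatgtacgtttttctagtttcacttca

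Promoters of single genes are shown from 200 bases before the start to 30 bases after it, 5′ to 3′ on the strand of the gene. H2AC7 (minus strand, chr6:26199492-26199721) and H4C5 (plus strand, chr6:26204638-26204867) have windows at the anchors of the strongest loop described below. H1-2 (minus strand, chr6:26056669-26056898), H4C3 (plus strand, chr6:26103961-26104190) and H1-6 (minus strand, chr6:26108334-26108563) are the members with the lowest H3K27ac contact relative to 0 m at 16 h.
H2AC7: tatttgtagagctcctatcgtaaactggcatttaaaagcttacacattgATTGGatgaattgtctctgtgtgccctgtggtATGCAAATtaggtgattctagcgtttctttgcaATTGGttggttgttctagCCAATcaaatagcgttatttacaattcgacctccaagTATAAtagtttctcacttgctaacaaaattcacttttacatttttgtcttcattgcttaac
H4C5: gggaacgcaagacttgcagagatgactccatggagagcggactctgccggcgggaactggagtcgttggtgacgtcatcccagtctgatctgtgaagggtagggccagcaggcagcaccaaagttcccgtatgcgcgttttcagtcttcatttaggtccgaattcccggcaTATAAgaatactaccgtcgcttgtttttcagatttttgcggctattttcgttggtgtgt
H1-2: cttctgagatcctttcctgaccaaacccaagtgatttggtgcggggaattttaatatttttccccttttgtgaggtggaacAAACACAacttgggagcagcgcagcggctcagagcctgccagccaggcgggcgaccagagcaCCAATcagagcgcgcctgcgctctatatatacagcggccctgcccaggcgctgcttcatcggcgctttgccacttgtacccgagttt
H4C3: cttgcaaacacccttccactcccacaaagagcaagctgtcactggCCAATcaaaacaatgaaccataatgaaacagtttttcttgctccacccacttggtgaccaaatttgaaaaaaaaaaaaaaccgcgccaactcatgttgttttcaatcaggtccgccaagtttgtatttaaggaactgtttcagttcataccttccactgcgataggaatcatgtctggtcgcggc
H1-6: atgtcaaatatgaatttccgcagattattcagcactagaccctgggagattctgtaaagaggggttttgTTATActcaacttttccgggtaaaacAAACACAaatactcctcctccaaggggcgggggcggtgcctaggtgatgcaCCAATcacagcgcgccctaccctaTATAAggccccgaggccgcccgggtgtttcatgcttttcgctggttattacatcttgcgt

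The octamer and the H1 box followed the histone classes, and the TATA box did not. In the window from 250 bases before to 50 after the start, read on both strands, the octamer was present at 18 of 50 members (36%), namely 9 of 11 H2A, 8 of 12 H2B and 1 of 10 H3 genes, against 1.66% of all coding promoters. The CCAAT box was present at 43 members (86%), at 5 of 11 H4 genes, 11 of 12 H2B genes and all H1, H2A and H3 genes, against 35.8% of all promoters. The TATA box was present at 46 members (92%), from 9 of 11 H4 genes to all H2A and H3 genes, against 18.8%. The H1 box stood at 6 of 6 H1 genes and at no other member, against 5.11% of all promoters. Head-to-head pairs share these windows in part, and a match describes letters and not bound protein.

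The genes lay in 3 subclusters, separated by gaps of more than 200 kb. Subcluster 1 held 29 genes, with starts from 26018015 to 26285866 over 268 kb. Subcluster 2 held 5 genes (27100574 to 27114885, 14.3 kb) and subcluster 3 held 16 genes (27775707 to 27861203, 85.5 kb). Of the 50 members 40 had at least 1 loop, and 10 had none (H1-1, H2BC3, H4C4, H3C7, H2BC9, H3C8, H2BC10, H4C9, H4C12 and H4C13). A further 6 members had 1 to 3 loops. Because starts are close, 22 members shared all their loops with another member, which left 28 different sets of loops, and neighbours such as H2BC4 and H2AC6 have identical values throughout and count as 1 measurement.

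Histone promoters with loops had a median of 23.5 loops, the middle 50% from 10.5 to 49 and the highest 72. All coding promoters with loops had a median of 19, and the 15 of 16 other coding genes of the same 2 Mb that had loops had a median of 17. The difference was larger in summed contact, the sum of normalised contact over all loops of a promoter. Its median over time points was 40.8 in H3K27ac and 58.9 in H3K4me3 for the members, against 19.6 and 35.4 for all coding promoters and 16.1 and 26 for the other genes of the 2 Mb. Replication-dependent histone genes elsewhere stood higher still, at 63.0 and 71.6, replication-independent histone genes had 46.2 and 61.5, and regulators of histone supply had 34.8 and 55.4, so high contact was not particular to the members. Each gene counts in these medians, so a loop set shared by several members enters once for each of them. With each of the 28 different sets counted once, the members' medians are lower. The median H3K4me3 contact then lies below that of all coding promoters, which were counted by gene. No test separates these medians, because members share loops.

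Contact differed among the classes and among the subclusters. H2A and H2B genes had median summed contacts, averaged over the time points, of 77.7 and 77.7 in H3K27ac and of 84.0 and 92.9 in H3K4me3. The 77.7 of both classes, and that of subcluster 3 below, is 1 measurement, the loop set shared by H3C12, H2AC17 and H2BC17. H1 genes, which encode the linker histones, had 30.9 and 29.4. H3 genes had 37 and 31, and H4 genes 20.6 and 14.2. H3C10 and H3C12 carry the same values as the H2A and H2B genes beside them. By position, subcluster 3 was highest, at 77.7 in H3K27ac and 120 in H3K4me3, subcluster 2 had 43.1 and 55.7, and subcluster 1 had 33.1 and 27.5.

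**Figure D1:**
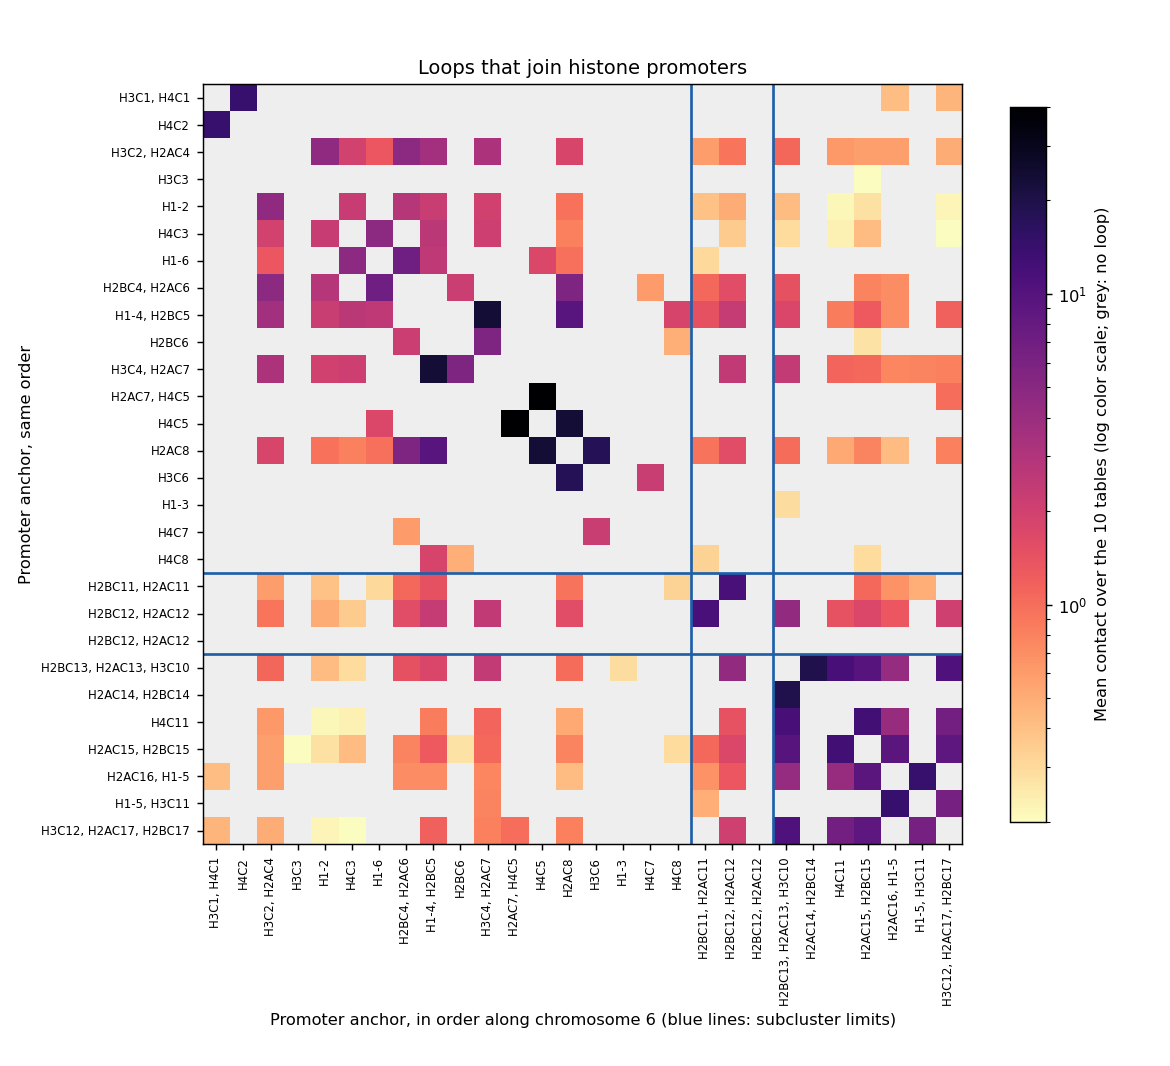
Matrix of the loops that join histone promoters, with the 28 promoter anchors in order along chromosome 6 on both axes (HIST1H4B as H4C2), colour for the mean normalised contact over the 10 tables (log scale), grey for pairs without a loop, and blue lines at the limits of the 3 subclusters. The darkest cells lie near the diagonal, among the 46 loops within subclusters, and the 61 loops between subclusters are spread over 22 of the 28 anchors.

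The 508 loops were sorted by what lay at the other end. Both anchors lay at histone promoters in 107 loops, 46 of them within the same subcluster and 61 between different subclusters. The 46 include loops with both anchors in the window of the same gene, H4C5 or H1-5. These counts depend on the window, being 24 and 27 with 1 kb on either side and 79 and 85 with the 5 kb bin. Loops within subclusters had a median length of 55 kb. Loops between subclusters numbered 14 for subclusters 1 and 2 (815 to 1080 kb), 39 for 1 and 3 (1520 to 1840 kb) and 8 for 2 and 3 (665 to 750 kb). Another 80 loops reached other coding promoters, and 321 ended at anchors without a coding promoter. Histone-to-histone loops were often called in both marks, 52.2% of those within and 52.5% of those between subclusters, compared with 28.3% of all loops of the members and 13.6% of all loops of the series. At 0 m loops within subclusters carried 38.1% of the members' H3K27ac contact and 31.3% of their H3K4me3 contact, and loops between subclusters carried 7.99% and 5.96%.

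Long loops between the subclusters were called at many of the possible pairs of histone promoter anchors. The members occupied 28 anchors, 18, 3 and 7 in the 3 subclusters, of which 22 had a loop to another subcluster. At 1000 to 2000 kb, 44 of 146 pairs of histone anchors were loops (30.1%, exact 95% binomial interval 22.8 to 38.3), against 1.83% of 150535 pairs of other coding-promoter anchors. At 500 to 1000 kb, 17 of 55 pairs were loops (30.9%, 19.1 to 44.8), against 7.89%. Shorter pairs went the other way. At 20 to 100 kb, 23 of 82 pairs (28%, 18.7 to 39.1) were loops against 38.8% of other pairs, and at 100 to 300 kb 12 of 70 (17.1%, 9.18 to 28) against 28.4%. The share of looped pairs thus declined with distance among other promoters and did not among the histone promoters. Other promoter anchors of the same 2 Mb had 3 loops in 61 pairs (4.92%) at 500 to 1000 kb and 0 in 34 pairs at 1000 to 2000 kb, which 3 counts of 34 bound at 8.82%. Pairs share anchors, so these intervals are too narrow and no test was made. Among anchors with at least 20 loops, the shares were 9 of 10 histone pairs (90%) against 33.0% at 500 to 1000 kb and 24 of 31 (77.4%) against 8.84% at 1000 to 2000 kb. That limit counts the long loops themselves, so it favours anchors that have them, and the higher shares are in part fixed by it.

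**Figure D2:**
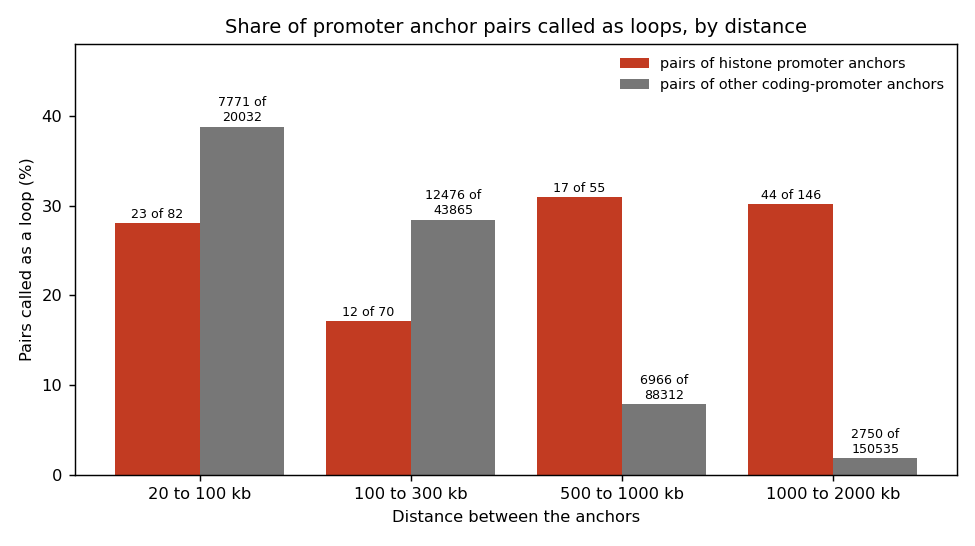
Bars from 0 show the share of promoter anchor pairs that are called loops (vertical axis, percent) in 4 classes of distance between the anchors (horizontal axis, kb), red for pairs of histone promoter anchors and grey for pairs of other coding-promoter anchors, with the counts above. Histone pairs stand at 30.9% and 30.1% in the classes from 500 to 1000 and from 1000 to 2000 kb, where other pairs stand at 7.89% and 1.83%.

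The anchors with most loops to other subclusters lay at shared promoters of H2A and H2B genes. These counts also depend on the number of possible partners, which is larger for anchors of subclusters 2 and 3 than for those of subcluster 1. The anchors at H2BC12 and H2AC12 and at H2AC15 and H2BC15 had 12 each, and the anchor at H2BC11 and H2AC11 had 10. The anchors at H2BC13, H2AC13 and H3C10 and at H3C12, H2AC17 and H2BC17 had 9 each.

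The loops between subclusters were also stronger than other loops of their length. Their mean H3K27ac contact at 0 m was 1.14, which was 5.57 times (4.88 to 6.33) that of loops joining 2 other coding promoters over the same lengths. The ratio was 5.15 at 30 m and 5.55 at 4 h, and it was 2.79 (2.41 to 3.21) at 16 h and 2.71 (2.31 to 3.16) at 72 h. In H3K4me3 it was 2.65 (2.31 to 3.03) at 0 m and between 1.84 and 2.31 at the later time points. By length, the 17 loops of 500 to 1000 kb had a mean H3K27ac contact of 1.85 at 0 m against 0.288 for other promoter pairs, and the 44 loops over 1000 kb had 0.862 against 0.172. Loops within subclusters were 1.60 to 2.09 times as strong as other promoter pairs in H3K27ac at the 5 time points, whereas in H3K4me3 the ratio ran from 0.801 to 1.14, with 0.933 (0.879 to 0.990) at 0 m. In H3K4me3 the direction within subclusters turned with the comparison. The 0 m ratio was 2.80 against all loops of the same length and 1.12 with medians weighted over the length classes. The plain median of these loops, 4.51, lay below the weighted median of other promoter pairs, 5.35.

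**Figure D3:**
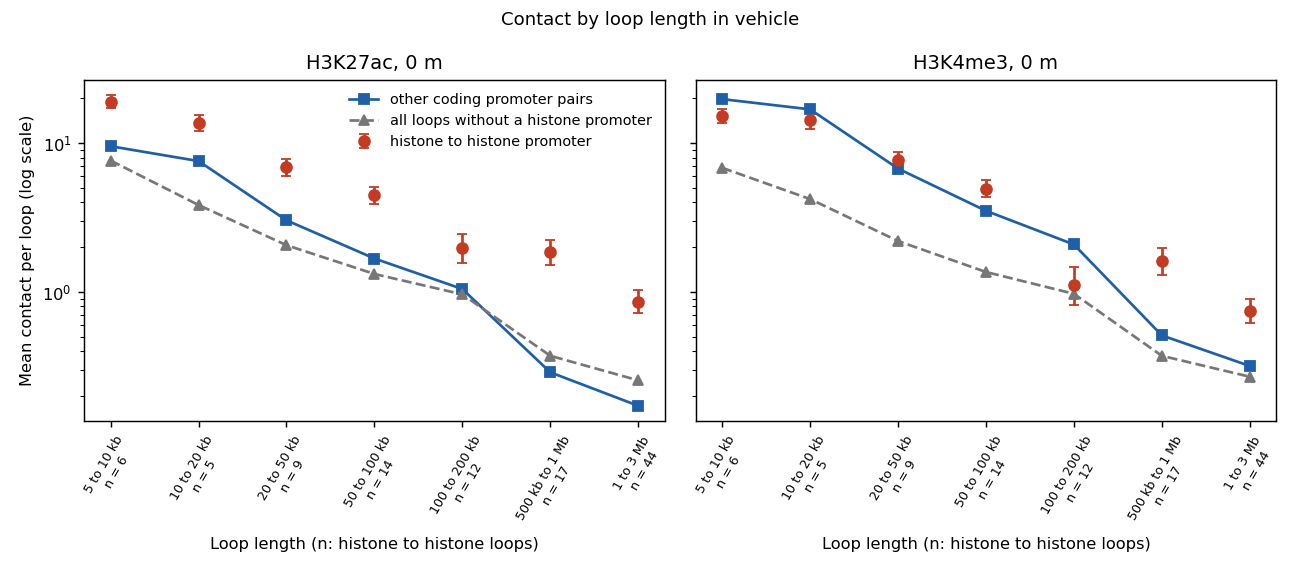
Mean normalised contact per loop at 0 m (log axis) in 7 classes of loop length (horizontal axis), in H3K27ac on the left and H3K4me3 on the right, for histone-to-histone loops (red, with 95% counting intervals and their number), loops joining other coding promoters (blue) and all loops without a histone promoter (grey). In H3K27ac the red points lie above both lines in every class, at 1.85 against 0.288 for the blue line from 500 to 1000 kb, whereas in H3K4me3 they lie below the blue line from 5 to 10, 10 to 20 and 100 to 200 kb.

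Single loops showed the same arrangement. Within subcluster 1 the strongest had anchors 5 kb apart on either side of the start of H4C5 (chr6:26202001-26203000 and chr6:26207001-26208000), both in the window of H4C5 and the first also touching that of H2AC7, with H3K27ac contacts of 37.3, 34.0, 33.3, 67.3 and 75.5 in order of time, from vehicle to 72 h of DHT, and H3K4me3 contacts of 29.9, 27, 34.1, 28.6 and 25.8. H3K27ac contact of this loop was higher at 16 and 72 h than at the 3 earlier times, and H3K4me3 contact was not. Its neighbour of 10 kb, from H4C5 to H2AC8, had H3K27ac contacts of 25, 22.7, 21.4, 25.5 and 22.6 and showed no such step. In subcluster 2 the 1 loop within it, from H2BC11 and H2AC11 to H2BC12 and H2AC12, ranged from 9.83 to 13.7 in H3K27ac and from 7.97 to 17.3 in H3K4me3. In subcluster 3 the strongest joined H2BC13, H2AC13 and H3C10 to H2AC14 and H2BC14 over 5 kb, at 18.5 to 24.1 in H3K27ac and 11.5 to 21.5 in H3K4me3, and the next joined H2AC16 and H1-5 to H1-5 and H3C11, at 6.84 to 13.1 and 17.0 to 23.6.

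The strongest loop between subclusters joined H2BC12 and H2AC12 of subcluster 2 (chr6:27112001-27113000) to H2BC13, H2AC13 and H3C10 of subcluster 3 (chr6:27777001-27778000) over 665 kb. Its H3K27ac contact was 5.0, 4.5, 6.2, 2.97 and 3.95 at the 5 time points, from 14 to 29 read pairs each, and its H3K4me3 contact was 4.51, 1.71, 5.15, 5.99 and 4.12. The H2BC12 to H2AC12 and H2BC13 to H2AC13 stretches are printed above and lie near these anchors but outside them. The promoter of H3C10, whose start lies inside the second anchor, is not printed. From subcluster 1 to 2, the strongest ran 915 kb from H3C4 and H2AC7 to H2BC12 and H2AC12, at H3K27ac contacts of 2.06, 2.88, 2.56, 2.34 and 0.526. From subcluster 1 to 3, the strongest ran 1580 kb from H3C4 and H2AC7 to H2BC13, H2AC13 and H3C10, at 3.23, 3.60, 1.92, 1.06 and 2.11. The 72 h value of the 915 kb loop rests on 2 read pairs and the 16 h value of the 1580 kb loop on 5, so single loops of this length are values with wide counting error. The other strong long loops used the same few promoters, with H1-4 and H2BC5, H2AC8, and H2BC4 and H2AC6 at the subcluster 1 end and H2AC15 and H2BC15 or H3C12, H2AC17 and H2BC17 at the subcluster 3 end, at mean contacts over the 10 tables between 1.43 and 2.33.

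Over DHT treatment, H3K27ac contact between subclusters was lower at 16 and 72 h than at 0 m. The mean contact of the 61 loops was 1.14 in vehicle, then 1.22, 0.981, 0.679 and 0.699 in order of time. The log2 change from 0 m was 0.10 (-0.14 to 0.33) at 30 m and -0.21 (-0.47 to 0.04) at 4 h, intervals that hold 0. At 16 h it was -0.74 (-1.03 to -0.46) and at 72 h -0.70 (-1.0 to -0.41), from 236 read pairs in vehicle and 195 and 162 at the later times. At 16 h 42 of the 61 loops were lower and 15 higher, and at 72 h 44 were lower and 12 higher. Loops that join other coding promoters over the same lengths had log2 changes of 0.26 and 0.34, and all other loops of those lengths -0.10 and -0.05. The share of the members' H3K27ac contact carried by these loops was 7.99% in vehicle, 4.53% at 16 h and 4.01% at 72 h.

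The lower values were seen for each pair of subclusters. At 16 h the log2 change was -0.86 (-1.41 to -0.31) between subclusters 1 and 2, with 13 of 14 loops lower, -0.60 (-1.0 to -0.21) between 1 and 3, with 21 of 39 lower and 14 higher, and -0.94 (-1.57 to -0.32) between 2 and 3, with 8 of 8 lower. At 72 h the values were -0.89 (-1.49 to -0.31), -0.69 (-1.12 to -0.26) and -0.52 (-1.14 to 0.09), of which the last interval holds 0. In H3K4me3 the log2 change between subclusters was -0.36 (-0.68 to -0.04) at 30 m, -0.01 (-0.24 to 0.21) at 4 h, -0.10 (-0.37 to 0.16) at 16 h and -0.43 (-0.74 to -0.13) at 72 h. At 16 h other loops of the same lengths had 0.18 in H3K4me3, and the value between subclusters was -0.28 (-0.54 to -0.02) relative to them, against -0.64 (-0.92 to -0.36) in H3K27ac. At 72 h the same measure was -0.59 (-0.89 to -0.28) in H3K4me3 and -0.65 (-0.95 to -0.36) in H3K27ac, at 30 m -0.45 and 0.39, and at 4 h -0.38 and 0.00. The difference between the marks was not tested.

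Other long loops of the same region gave values nearer to 0. Loops of at least 500 kb from histone promoters to any anchor outside the histone promoters (210 loops) had H3K27ac log2 changes of -0.30 (-0.54 to -0.07) at 16 h and -0.23 (-0.47 to 0.01) at 72 h. Loops of at least 500 kb in the same 2 Mb that touch no histone promoter (138 loops) had -0.37 (-0.73 to -0.01) and 0.05 (-0.30 to 0.41). Long contacts of the region were thus lower at 16 h than at 0 m in all 3 sets. The lowest value was that between histone promoters, whose interval overlaps those of the other sets. All other loops of these lengths in the series had -0.12 and -0.13 at 16 h. Relative to them the 210 and 138 loops had -0.18 (-0.42 to 0.05) and -0.24 (-0.60 to 0.12), intervals that hold 0. Whether contact was lower in each cell or present in fewer cells cannot be told apart in bulk material.

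**Figure D4:**
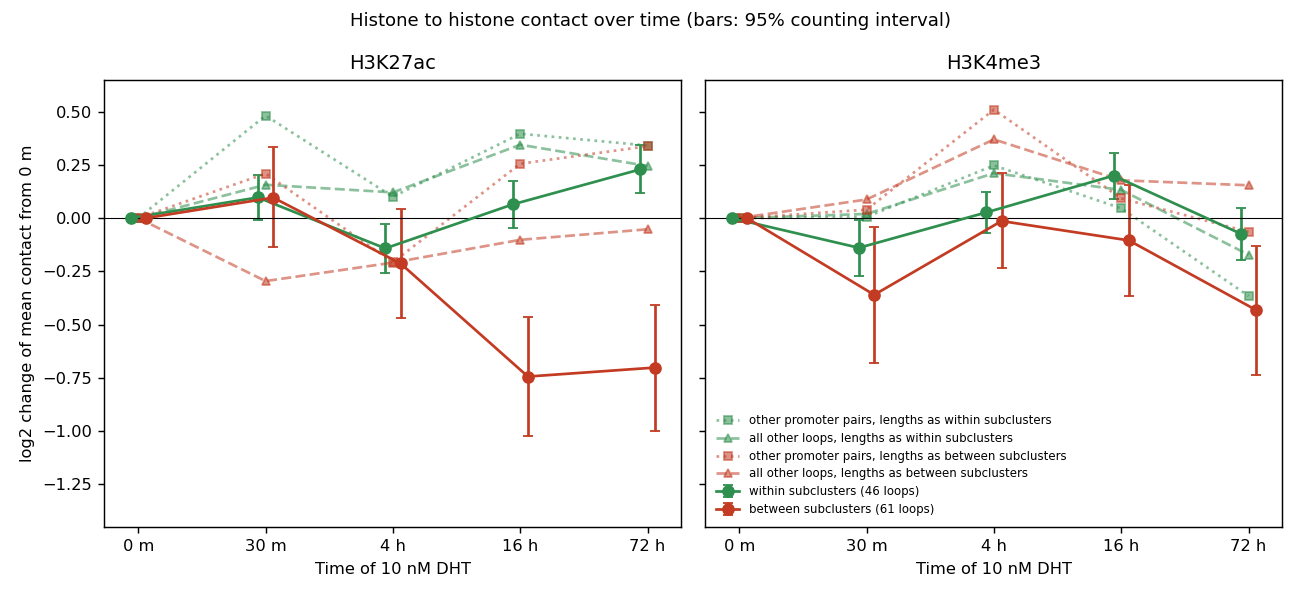
Log2 change of mean contact from 0 m (vertical axis) over the time of DHT treatment (horizontal axis), in H3K27ac on the left and H3K4me3 on the right, for loops within (green) and between (red) subclusters, with exact 95% counting intervals as bars, and for other promoter pairs (dotted) and all other loops (dashed) of the same lengths. H3K27ac contact between subclusters lies at -0.74 at 16 h and -0.70 at 72 h, below all other lines, and contact within subclusters at 0.06 and 0.23.

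Within subclusters mean H3K27ac contact was not lower at 16 and 72 h than at 0 m. At 16 h 26 of 46 loops were lower and 20 higher, and at 72 h 18 were lower and 28 higher. The 16 h mean rests on the 5 kb loop across the start of H4C5, which had 37.3 at 0 m, 67.3 at 16 h and 75.5 at 72 h. Without that loop the mean at 16 h lies below that at 0 m. Mean H3K27ac contact of the 46 loops was 7.19 in vehicle, then 7.69, 6.51, 7.51 and 8.42 in order of time, and the log2 change was 0.10, -0.14, 0.06 (-0.05 to 0.18) and 0.23 (0.12 to 0.34). At 16 h this was below other loops of the same lengths, which had 0.40 for promoter pairs and 0.34 for all other loops, a difference of -0.28 (-0.39 to -0.17) from the latter, and at 72 h those had 0.34 and 0.24. H3K4me3 contact was 6.85, 6.22, 6.98, 7.87 and 6.51, with its highest log2 change, 0.20 (0.09 to 0.31), at 16 h. Over all 508 loops, the H3K27ac log2 change was 0.13, -0.12, 0.08 and 0.29 at the 4 treated time points, against 0.09, 0.07, 0.25 and 0.17 for all loops of the series. Scaling the libraries to equal totals lowers every H3K27ac log2 value by the latter amounts, which turns the members' 16 h value to -0.17 and the 16 h value within subclusters to -0.18. The H3K4me3 log2 change of all 508 loops was -0.07, 0.04, 0.21 and -0.06, against 0.02, 0.22, 0.14 and -0.13 for all loops of the series.

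Few single promoters passed a 1.5-fold difference from 0 m. Among members, 37 had at least 50 read pairs at 0 m and the later time together. In H3K27ac 1 of 37 was higher at 30 m (H3C11) and none was lower, against 19.1% and 3.12% of all coding promoters. At 4 h none passed in either direction, against 4.06% and 0.993%. At 16 h none was higher and 3 were lower (H1-2, H1-6 and H4C3), against 18.6% and 8.0%, and at 72 h 2 were higher (H2AC6 and H2BC4, which share their loops) and none lower, against 17.9% and 5.87%. The call of H2AC6 and H2BC4 at 72 h was lost without loops under 20 kb, where their log2 change was -0.01 in place of 0.88, and that of H1-6 at 16 h was lost likewise, at -0.50. The members' counts of higher promoters stood below these shares at each of the 4 time points, and the count of lower promoters at 16 h, 3 of 37, was near its background. Members share loops, so the counts are not independent.

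In H3K4me3 no member was 1.5-fold higher at any treated time point, where, in order of time, 0.922%, 14.7%, 3.98% and 1.32% of coding promoters were. Lower were H2BC6 and HIST1H4B (H4C2) at 30 m, H2BC6 at 4 h, none at 16 h and HIST1H4B at 72 h, against 1.48%, 2.77%, 0.548% and 6.35%. The median log2 change of the members in H3K27ac was 0.16, -0.13, -0.11 and 0.02, below that of all coding promoters (0.27, 0.05, 0.15 and 0.17) at all 4 time points. In H3K4me3 it was -0.11, 0.00, 0.16 and -0.14, against 0.04, 0.22, 0.12 and -0.17. At 16 h, 14 of 37 members were above 0 in H3K27ac and 32 of 37 in H3K4me3, compared with 7025 of 11366 and 8462 of 12224 coding promoters.

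Of the linker histone genes, H1-4, which shares its 42 loops with H2BC5, had the highest contact, with H3K27ac sums of 129, 127, 116, 151 and 174 in order of time and H3K4me3 sums of 126, 130, 151, 153 and 130. H1-5 in subcluster 3 had 37.9, 50.9, 39.7, 29.1 and 28.7 in H3K27ac and 61.8, 61.1, 55.1, 78.9 and 63.8 in H3K4me3, so that its 16 h value was the lowest but one in the first mark and the highest in the second. H1-2 had the lowest 16 h change of all members in H3K27ac. Its sums were 35.0, 36.2, 32.5, 18.7 and 32.4, a log2 change at 16 h of -0.90 (-1.32 to -0.49) that was not seen at 72 h, and its H3K4me3 sums stayed between 24.2 and 32.7. H1-6, the testis-type linker histone, had 27, 28.2, 26.9, 17.4 and 19.7 in H3K27ac, a log2 change of -0.63 (-1.08 to -0.19) at 16 h, and 24.8, 21.9, 19.2, 29.2 and 33.3 in H3K4me3. H1-1 had no loop and H1-3 had 2 weak loops. The testis-type pair H2AC1 and H2BC1, outside the window at 25726790 and 25727005, had none.

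Among core histone genes the highest mean over the 10 tables was at the shared promoter of H2AC13, H2BC13 and H3C10, with 72 loops, although in H3K27ac alone H2BC5 and H2AC7 were higher. It had H3K27ac sums of 125, 150, 131, 121 and 131 and H3K4me3 sums of 158, 147, 158, 190 and 150. H2AC7 followed among H2A genes, with 121, 127, 109, 159 and 171 in H3K27ac and 128, 119, 138, 136 and 129 in H3K4me3. Its 16 h H3K27ac log2 change was 0.40 (0.22 to 0.58). Of these sums the 5 kb loop across the start of H4C5, which only touches the edge of the H2AC7 window, made 37.3 at 0 m and 67.3 at 16 h. Both H3K27ac values after 4 h exceeded the 3 earlier ones at H2AC7, whereas at H2AC13 the 16 h log2 change was -0.04 (-0.23 to 0.14). The highest H3K27ac log2 changes at 16 and 72 h belonged to the pair of H2BC4 and H2AC6, with 86.1, 93.0, 75.6, 125 and 158, log2 changes of 0.54 (0.34 to 0.75) at 16 h and 0.88 (0.67 to 1.08) at 72 h. In H3K4me3 the pair had 92.8, 83.7, 110, 98.8 and 78.9, with no step at 16 h.

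The lowest H2A gene with loops, H2AC14, and its partner H2BC14 had a single loop, with H3K27ac contacts of 18.5, 24.1, 19.2, 23.1 and 22.4 and H3K4me3 contacts of 15.5, 15.4, 19.2, 21.5 and 11.5. H2BC6, with 5 loops, had the lowest H3K4me3 change at 16 h, with 18.9 at 0 m and then 9.22, 10.3, 14.7 and 15.9, while H3K27ac ran from 8.52 to 12.4. H2BC11 and H2AC11, the pair of subcluster 2 with 18 loops, had H3K27ac sums of 34.4, 46.6, 25.2, 29.1 and 32.9 and H3K4me3 sums of 32.4, 23.9, 37.2, 30.3 and 22.5. H2BC10 had no loop. H3C12, next to H2AC17 and H2BC17, had 71 loops and H3K27ac sums of 76.7, 91.2, 72.0, 70.9 and 77.6, a range without order in time. H3C6, 1 of the 3 members without the stem-loop, had 26.7, 27, 23.9, 25.7 and 33.7 in H3K27ac and 16.9, 17.8, 17.2, 22.4 and 20.1 in H3K4me3. H3C8 had no loop.

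Among H4 genes, H4C5 had H3K27ac sums of 87.9, 73.1, 72.0, 110 and 121, and H4C11 had 55.2, 57.4, 47.9, 67.1 and 65.8, both highest after 4 h. H4C3 had 22.6, 22.9, 24.1, 14 and 18.2, a log2 change at 16 h of -0.69 (-1.19 to -0.20). HIST1H4B, with 1 loop, had 22.3, 23.9, 18.8, 18 and 19.7 in H3K27ac and 10.2, 5.47, 9.35, 8.89 and 5.77 in H3K4me3, and H4C13 had no loop. H1-2, H4C3 and H1-6 follow each other in the order of members in the first part of subcluster 1, from 26056698 to 26108363. The start of another gene, HFE, lies between those of H1-2 and H4C3.

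**Figure D5:**
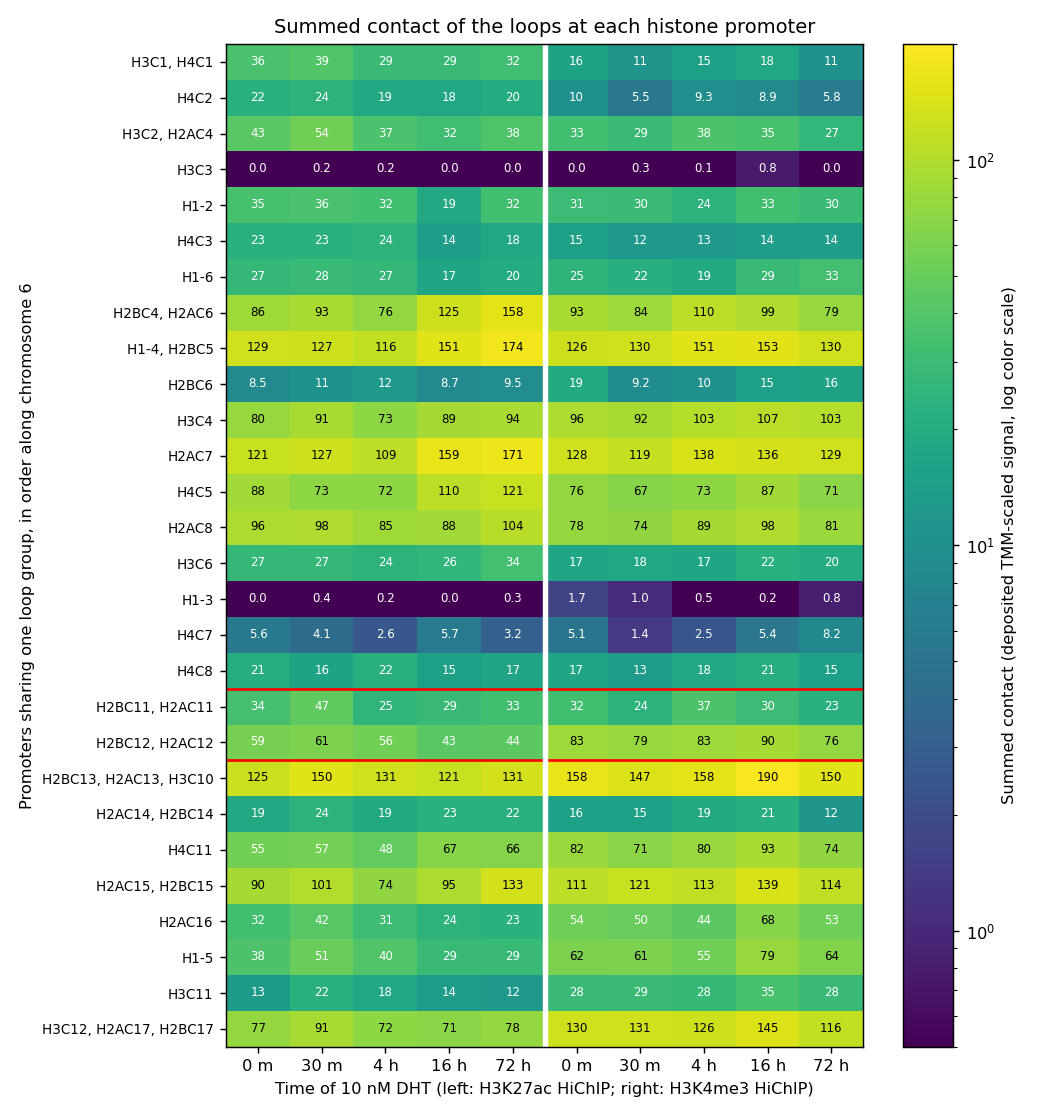
Summed normalised contact (colour on a log scale, value printed in each cell) for the 28 different loop sets of the histone promoters, in rows in genome order with red lines between subclusters (HIST1H4B as H4C2), at the 5 time points of H3K27ac (left) and H3K4me3 (right). The highest cells are those of H1-4 and H2BC5 at 174 and H2AC7 at 171 in H3K27ac at 72 h and of H2BC13, H2AC13 and H3C10 at 190 in H3K4me3 at 16 h.

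The members' H3K27ac contact at 16 h split by loop length. The 14 loops under 10 kb, which carried 28.2% of the members' H3K27ac contact at 0 m, had log2 changes of 0.55 (0.43 to 0.67) at 16 h and 0.85 (0.73 to 0.97) at 72 h. Other loops of that length in the series had 0.69 and 0.50. The 480 loops of at least 20 kb had -0.18 (-0.28 to -0.09) and -0.01 (-0.10 to 0.09), against -0.03 and -0.03. In H3K4me3 at 16 h the order was the opposite, with 0.13 (0.02 to 0.25) for the short loops and 0.29 (0.21 to 0.37) for the long ones.

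A few short loops carried the higher H3K27ac values. The 5 kb loop from H2BC4 and H2AC6 went from 40.6 at 0 m to 91.3 at 16 h and 112 at 72 h. The loop of H1-4 and H2BC5 went from 24.7 to 39.9 and 57.4, and that of H2AC15 and H2BC15 from 19.1 to 34.6 and 57.4. Most of the short loops were higher than at 0 m at each of these times. Others were lower at both, among them the loop from H3C1, H4C1 and HIST1H4B, with 22.3, 18 and 19.7. Likewise, that of H4C3 and H1-6 had 6.76, 4.03 and 4.74, and that of H1-2 had 5.29, 2.12 and 2.63. Without loops under 20 kb, the 16 h log2 change of H2BC4 and H2AC6 was -0.35 in place of 0.54 and that of H4C5 was -0.57 in place of 0.32, whereas H1-2 kept a value of -0.94.

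Beyond the histone promoters, 151 other anchors were joined to the members. The anchor with the highest summed contact, chr6:26127001-26128000, lay inside the gene model of H2AC6, 3127 bp from its start, and was joined by 13 loops to the promoters of 24 members in all 3 subclusters. Its H3K27ac contact was 89.9, 101, 81.6, 161 and 174 at the 5 time points and its H3K4me3 contact 127, 133, 156, 150 and 119. The next, chr6:27802001-27803000, lay between genes, 3162 bp from the start of H4C12, and was joined by 7 loops to 14 members, with H3K27ac contacts of 42.3, 58.5, 45.5, 63.1 and 87.1. At both anchors H3K27ac contact was highest at 72 h, with log2 changes of 0.95 and 1.04, and H3K4me3 contact was not. At each, the single 5 kb loop already given carried most of the difference, 40.6 to 112 at the first and 19.1 to 57.4 at the second. Another anchor, chr6:26182001-26183000 in the gene model of H2BC6, joined 13 members and had 21.2, 24.5, 21.4, 15.7 and 15.8 in H3K27ac. Coding promoters outside the histone genes held 24 of the 151 anchors. The anchor at ABT1 was joined to 19 members by 10 loops, with H3K27ac contacts of 5.58 at 0 m and 3.40 at 16 h and H3K4me3 contacts of 7.33 and 13.5.

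Other histone genes and their regulators were described by the same rule. Of 10 replication-dependent histone genes elsewhere with enough read pairs, none passed 1.5-fold in H3K27ac at 16 h, and H2AC25 and H2BC26, which have identical values and count as 1 measurement, were higher at 72 h. Replication-independent histone genes are transcribed through the cell cycle and supply variants. Of 10 of them, H2AX and H2AZ2 were higher at 30 m, H2AZ1 at 16 h and H2AZ2 and H3-3B at 72 h in H3K27ac. Among 24 regulators of histone supply, 21 had enough read pairs at 16 h, of which 5 were higher (the histone chaperone genes ASF1B, CHAF1A and NASP, the S-phase kinase gene CDK2 and ATAD2) and 1 was lower (LSM11, a subunit of the U7 particle that cuts histone pre-mRNA). At 30 m 6 of 22 regulators were higher and 1 lower, and at 72 h 4 of 22 were higher and none lower. These small counts stand beside 18.6% of all coding promoters higher and 8.0% lower at 16 h, 19.1% higher at 30 m and 17.9% higher at 72 h. In H3K4me3, MACROH2A2, H2BC18 and the regulator MYBL2 were higher at 4 h, and MYBL2 also at 30 m. Lower in that mark at 72 h were H3-3B and the regulators CHAF1A and SYMPK. Of all coding promoters, 14.7% were higher at 4 h, 0.922% higher at 30 m and 6.35% lower at 72 h in H3K4me3. NPAT, the coactivator of the histone locus body, had H3K27ac sums of 42.6 at 0 m and 36.9 at 16 h. SLBP, which binds the stem-loop, had 35.8 and 25.1. In the same 2 Mb, of 11 other coding genes with enough read pairs at 16 h none was higher and 1 was lower (ABT1).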

How the data were processed

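HiChIP of H3K27ac and H3K4me3 was analysed in LNCaP cells at 5 time points of DHT treatment, as 10 deposited tables for 15 labelled samples. The submitters' processing notes name Trim Galore 0.5.0, HiC-Pro 3.1.0, Bowtie2 and hg19. Per the study's methods, loops were called with FitHiChIP after the time points of each mark were merged, and Cooler gave their contact. The deposited values are a signal, namely the contact of each loop, which the authors scaled by TMM (a trimmed mean of log ratios) over the 5 libraries of its mark. In each library 100% of values were whole multiples of a step within 0.01 read pairs, so read pairs were recovered by division. There is 1 value per mark and time point, and whether it pools both H3K27ac replicates is not given in the sources used here, so no count test was made.

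Anchor pairs of both loop sets were taken once each. Coordinates are those of hg19, the last anchor of 25 of 25 chromosomes with loops ended inside the GRCh37 sequence used here, and starts came from Gencode release 44 lifted to GRCh37. H2BC7, H2BC8 and H4C6 are not in this lifted annotation and were not analysed here, and the read-through model ENSG00000282988 was left out of the other genes of the region. Subclusters were split at gaps over 200 kb. Log2 changes compare mean or summed contact with 0 m, members needed 50 read pairs at both time points together to be counted, and 1.5-fold was the limit. Intervals are exact at 95% for ratios of read pairs and exact binomial for shares. Alternatives varied the scaling, loop set, window, bin, loop length, comparison loops, fold and minimum of read pairs. Named genes were, in each class, the 2 members of highest and the 1 of lowest mean contact, in each mark the 3 highest and 3 lowest 16 h changes, the testis-type members, and the strongest loops within subclusters (2) and between them (3 for each pair). Ties among members without loops were broken by table order. Members, gene lists and comparisons were chosen with earlier results of these data known. Other genes, loops and anchors were named after their values were seen. Scripts used Python 3.11.15, numpy 2.4.6, pandas 2.3.3, scipy 1.17.1 and matplotlib 3.10.9 and were tested on simulated data.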

Additional observations from a re-analysis of the deposited data

Results flagged for a closer look

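In the sets of all member loops and of loops within and between subclusters, contact of the same loops moved in opposite directions at different time points, with counting intervals on opposite sides of 0, in the cases given here. Over all loops of histone promoters, the H3K27ac log2 change from 0 m was 0.13 at 30 m, 0.076 at 16 h and 0.29 at 72 h, but -0.12 at 4 h. The 16 h value turned below 0 under 4 of 6 alternatives (-0.18 to -0.030), among them equal library totals, where it has the same sign as at 4 h. Within subclusters it was 0.23 at 72 h and -0.14 at 4 h in H3K27ac, and 0.20 at 16 h and -0.14 at 30 m in H3K4me3. With equal library totals the H3K27ac value at 72 h was 0.057 and the H3K4me3 value at 16 h was 0.064. Both lie below the lower limits of the intervals, so the opposite directions within subclusters depend on the scaling. The differences between time points were not tested, since there is a single deposited value for each mark and time point, and the intervals cover counting error only.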

How the results depend on the processing

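Of 160 alternatives for 43 results, 109 left the value within its error or count limit, 44 moved it and 7 turned it. Lower H3K27ac contact between subclusters kept its direction, with log2 changes of -0.99 to -0.51 at 16 h and -0.87 to -0.45 at 72 h over 6 alternatives each, of which those on the reference and on the strongest loop were chosen after seeing the data. Scaling to equal totals gave, for all member loops, H3K27ac 0.034 (30 m), -0.17 (16 h, turned) and 0.12 (72 h) and H3K4me3 -0.18 (4 h), 0.077 (16 h) and 0.071 (72 h), within subclusters H3K27ac -0.18 (16 h) and 0.057 (72 h) and H3K4me3 -0.20 (4 h), 0.064 (16 h) and 0.053 (72 h), and between them H3K4me3 -0.24 (4 h). Loops of at least 20 kb gave H3K27ac 0.054 (30 m), -0.18 (16 h, turned) and -0.0052 (72 h, turned) and H3K4me3 0.0042 (30 m), 0.29 (16 h) and 0.061 (72 h). The 1 kb window gave H3K27ac -0.030 (16 h, turned) and 0.18 (72 h), the H3K27ac set alone 0.36 (72 h), and the median over genes H3K27ac -0.11 (16 h, turned) and 0.017 (72 h) and H3K4me3 -0.14 (72 h). Within subclusters the 5 kb bin gave H3K27ac 0.30 (16 h) and 0.50 (72 h).

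Loops within subclusters numbered 24 with the 1 kb window and 79 with the 5 kb bin, and those between them 27 with the 1 kb window. The median summed H3K4me3 contact at 0 m was 43.3 with the 1 kb window and 45.7 with the 5 kb bin, against 57.8. Against all loops of the length, 0 m ratios were 2.91 (H3K27ac) and 2.80 (H3K4me3, turned) within and 3.96 and 3.31 between subclusters. With medians weighted over the length classes, the ratios to other promoter pairs were 2.62 and 1.12 (turned) within and 13.8 (H3K27ac) between. The 13.8 divides by a weighted median of 0.082, since the median of other promoter pairs was 0 from 1 to 3 Mb. At 2-fold, the number of members past the limit in H3K27ac was 0 at 30 m, 16 h and 72 h, and in H3K4me3 1 at 30 m and 0 at 4 h and 72 h. With no minimum of read pairs it was 1 at 4 h in H3K27ac, and 4, 3, 1 and 3 at 30 m, 4 h, 16 h and 72 h in H3K4me3. With anchors of at least 20 loops, 90% and 77.4% of histone pairs were loops at 500 to 1000 and 1000 to 2000 kb. This limit was chosen after seeing the data, and it counts the scored loops. The causes were not tested.

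No paired analysis was possible because the replicates carry no separate deposited values, and for the same reason no replicate was left out. Depth limits single long loops, many of which rest on fewer than 10 read pairs per time point.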
